A study of Homo sapiens with 24 samples.

Results

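Strong H3K4me3 regions that lay inside protein-coding genes but away from every annotated transcription start were described in the human beta-like cell line EndoC-βH3. The regions were those on autosomes with a mean normalized count of at least 12.8 that overlapped the body of a GENCODE protein-coding gene, were more than 5 kb from the start of every GENCODE transcript of any type, and were not in a gene with a numbered ZNF symbol. There were 3684 of them among 97545 regions in the table (3.78%) and among 23864 autosomal regions that reached the same mean (15.4%). They held 6.39% of the summed mean of all regions. The members were chosen by this mean count, together with their position, so their strength is a description and not a finding.

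H3K4me3 was profiled by multiplexed ChIP-seq in 8 samples of 500000 cells. Of these, 4 samples were non-senescent control cells and 4 were senescent cells, treated for 3 weeks with 4-hydroxytamoxifen (4-OHT). The sources differ on the dose, with 1 mM in the sample descriptions and 1 μM in the methods. All samples were of 1 line, labelled as WT, which carries an inducible CreER recombinase and excisable immortalizing genes (the SV40 large T antigen and hTERT), which 4-OHT removes. The table gave 1 mean per region over all 8 samples, and no value per sample was used. The depth of each sample was therefore unknown, regions carry no SD, and senescent and non-senescent cells were not compared. Of the 10 beta cell markers listed for this check, 9 had a region within 2 kb of a start, with a median of 173 over these 9, and MAFA had none. The minimum mean was reached by 8, with INS at only 24.7, while IAPP, at 6.94, did not reach it. Of 5 acinar markers, 3 had a region and none reached the minimum, and of 5 fibroblast or stellate markers, 4 had a region and none reached it. Markers of other types did reach it: 3 of 3 delta cell markers (LEPR at 135), 2 of 4 alpha cell markers (TTR at 133), 2 of 4 ductal, 2 of 4 endothelial and 1 of 5 immune cell markers (CD68 at 97.1).

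H3K4me3 is a histone modification written by the SET1 and MLL methyltransferase complexes. It is strongest around the starts of transcribed genes, above all where the DNA is rich in CpG, because CXXC-domain subunits of these complexes bind unmethylated CpG. Weaker H3K4me3 is also found at active enhancers, which mostly carry H3K4me1, and at starts that the annotation does not hold. In beta cells the mark is read beside transcription factors such as PDX1 and NEUROD1 to define the active genes of the cell.

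The central 300 bases of 7 regions are given below, read from hg38 with CpG dinucleotides in capitals, so that the sequence types can be seen. The first 4 are the strongest members that have a single-copy centre outside UTRs.
RALGAPA2 chr20:20454858-20455157, plus strand: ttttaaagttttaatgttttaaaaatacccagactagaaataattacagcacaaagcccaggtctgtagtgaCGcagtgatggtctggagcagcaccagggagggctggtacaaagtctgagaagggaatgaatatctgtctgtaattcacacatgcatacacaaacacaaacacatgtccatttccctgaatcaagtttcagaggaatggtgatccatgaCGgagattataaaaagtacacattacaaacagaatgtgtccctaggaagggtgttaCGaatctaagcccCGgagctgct
PTH2R chr2:208545071-208545370, plus strand: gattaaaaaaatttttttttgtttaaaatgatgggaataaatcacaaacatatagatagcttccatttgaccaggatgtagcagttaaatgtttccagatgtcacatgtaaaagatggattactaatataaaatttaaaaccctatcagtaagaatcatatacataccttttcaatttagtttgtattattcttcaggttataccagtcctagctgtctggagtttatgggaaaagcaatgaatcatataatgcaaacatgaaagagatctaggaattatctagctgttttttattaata
ESRRG chr1:216521239-216521538, plus strand: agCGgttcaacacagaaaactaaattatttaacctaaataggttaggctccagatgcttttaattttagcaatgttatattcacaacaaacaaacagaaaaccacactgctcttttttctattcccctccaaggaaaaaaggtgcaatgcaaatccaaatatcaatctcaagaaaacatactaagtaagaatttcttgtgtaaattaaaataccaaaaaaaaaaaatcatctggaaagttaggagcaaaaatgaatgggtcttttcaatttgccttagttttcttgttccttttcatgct
HDAC4 chr2:239286230-239286529, plus strand: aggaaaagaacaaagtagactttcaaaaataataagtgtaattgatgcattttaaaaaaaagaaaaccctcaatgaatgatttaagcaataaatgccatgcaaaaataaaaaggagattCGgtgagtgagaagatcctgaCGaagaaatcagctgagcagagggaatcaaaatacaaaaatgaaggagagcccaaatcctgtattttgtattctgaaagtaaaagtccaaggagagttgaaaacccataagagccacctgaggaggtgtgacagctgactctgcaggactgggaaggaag
These 4 centres held between 0 and 4 CpG in 300 bases, and their GC contents were 41.7%, 28.0%, 31.0% and 37.3%. The next 2 show the opposite end, members with the most CpG among those of high GC content.
KCNK12 chr2:47520910-47521209, plus strand: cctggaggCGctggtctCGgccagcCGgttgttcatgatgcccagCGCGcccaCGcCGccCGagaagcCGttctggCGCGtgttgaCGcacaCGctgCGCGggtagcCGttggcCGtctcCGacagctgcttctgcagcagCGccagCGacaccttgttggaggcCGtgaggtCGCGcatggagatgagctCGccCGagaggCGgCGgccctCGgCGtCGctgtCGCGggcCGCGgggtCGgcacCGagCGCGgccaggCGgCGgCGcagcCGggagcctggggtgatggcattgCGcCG
FANCC chr9:95349478-95349777, plus strand: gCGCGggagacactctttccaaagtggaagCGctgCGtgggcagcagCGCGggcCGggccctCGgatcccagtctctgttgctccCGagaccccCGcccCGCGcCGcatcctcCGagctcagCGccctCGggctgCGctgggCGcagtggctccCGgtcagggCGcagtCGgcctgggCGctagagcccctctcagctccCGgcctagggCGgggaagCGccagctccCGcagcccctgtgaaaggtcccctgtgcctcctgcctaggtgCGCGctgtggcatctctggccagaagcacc
KCNK12, which encodes a potassium channel subunit, had 44 CpG in its window and FANCC, a DNA repair gene, had 28. The last is the member of lowest GC content, 28.4% over the whole region.
PLCXD3 chr5:41401557-41401856, plus strand: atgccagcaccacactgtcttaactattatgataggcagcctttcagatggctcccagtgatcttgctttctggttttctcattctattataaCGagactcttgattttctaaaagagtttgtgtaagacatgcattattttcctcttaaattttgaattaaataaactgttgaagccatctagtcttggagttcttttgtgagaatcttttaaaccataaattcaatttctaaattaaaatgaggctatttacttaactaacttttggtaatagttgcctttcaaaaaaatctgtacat
PLCXD3 had 1 CpG in the window.

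In sequence the members were much closer to other regions away from starts, inside genes or between them, than to promoters. Their median GC content was 41.0%, against 39.2% in the 22710 weaker regions that met the same position rule, 50.4% in 13005 promoter regions of at least the same mean and 41.5% in 3705 intergenic regions of at least the same mean. The ratio of observed to expected CpG had a median of 0.220 in the members, 0.176 in weaker regions, 0.582 in promoters and 0.238 in intergenic regions. Over all autosomal regions the median GC content was 41.6% and the median ratio was 0.219. A sequence like that of a CpG island, taken as GC content over 50% and a ratio over 0.6 across the whole region, was found in 54 members (1.47%), in 0.484% of weaker regions, in 29.95% of promoters and in 4.45% of intergenic regions. Members and weaker regions differed in width, as no member was exactly 500 bp wide while 50.1% of weaker regions were. The part of width in these values was not tested. Among regions of 1 to 2 kb, the 2123 members had a median GC content of 40.9% and a CpG ratio of 0.224, and the 2934 weaker regions had 39.6% and 0.184. These shares and medians count regions of 1 line, and differences between classes were not tested.

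**Figure D1:**
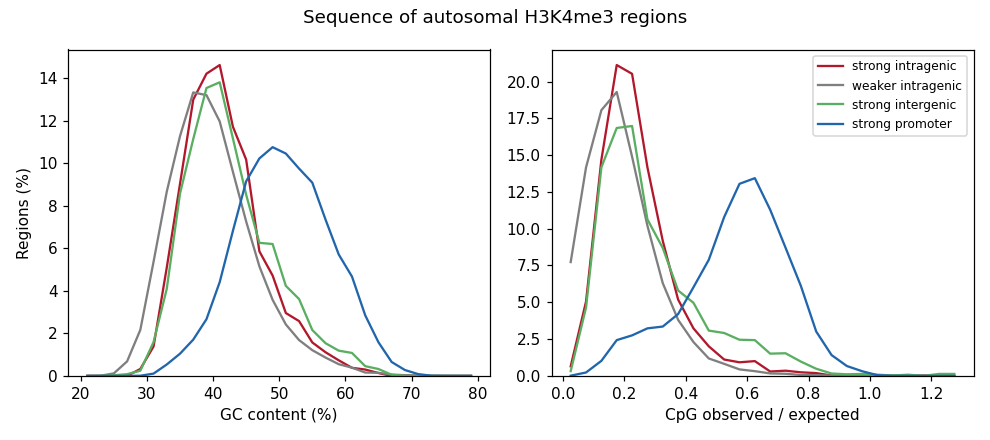
GC content in percent (left) and the ratio of observed to expected CpG (right) of regions in 4 classes, as the share of each class in percent per bin. Strong intragenic regions peak near the weaker intragenic and intergenic ones, with medians of 0.220, 0.176 and 0.238 for the CpG ratio, while strong promoters peak apart, with a median of 0.582.

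The 5 members of highest CpG ratio with a GC content over 55% were in KCNK12, IL17D, FANCC, NFIA and MYO16. The KCNK12 member at chr2:47520333-47521786 overlapped coding exon 2 of 2, had a GC content of 62.5%, a ratio of 0.837 and a mean of 19.6, and its host promoter had 13.1. The IL17D member at chr13:20721388-20722417, in the gene of a secreted cytokine, overlapped exon 2 of 2 and had a mean of 17.3, above the 5.89 of the host promoter. The FANCC member at chr9:95348855-95350400 was intronic, with a mean of 15.7 against 72.8 at the promoter. These 3 means lay below the member median of 20.4.

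Short motifs were counted on both strands in the central 500 bases of each region. The GC box (GGGCGG), bound by SP1, was in 8.31% of members, 4.32% of weaker regions, 45.7% of promoters and 14.2% of all autosomal regions. Letters bound by AP-1 (TGANTCA) were in 18.3% of members, 16.1% of weaker regions, 9.33% of promoters and 15.2% of all regions. The FOXA motif (TGTTTAC) was in 13.3%, 11.9%, 6.37% and 10.5% of these classes. The NEUROD1 E-box (CAGATGG) was in 16.1%, 13.9%, 7.59% and 12.7%, and the homeobox core (TAATTA) was in 22.6%, 20.8%, 9.73% and 17.8%. These 5 motifs were somewhat more frequent in members than in weaker regions, and the last 4 were less frequent in promoters, whose windows had a median GC content of 54.6% against 41.4% in members. The MAF motif (TGCTGAC) was in 8.82%, 7.53%, 5.87% and 7.18%. The RFX motif (GTTGCC) was in 17.1% of members, 15.4% of weaker regions, 18.6% of promoters and 16.4% of all regions, and was thus not less frequent in promoters. The CCAAT box (CCAAT) went the other way between the intragenic classes, with 49.5% of members and 54.0% of weaker regions. The CTCF core motif, found in 0.624% of members and 0.537% of weaker regions, and the HNF1 motif, found in 6 members (0.163%), were rare. The HNF1 motif was in 0.0396% of weaker regions, 0.189% of strong intergenic regions and 0.0461% of all regions. A match of letters is not a bound site. Base composition differs between these classes, and its part in the shares was not tested.

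Most members were unique in the genome. The median copy number of stretches of 24 bases was over 2 in 28 members (0.760%), in 4.04% of weaker regions and in 6.50% of strong intergenic regions. The members with the most copies were intronic regions of RDX, with a median of 210.5 copies and a mean of 17.7, and GCH1, with 67.5 copies and a mean of 46.5. RDX encodes radixin, which links actin to the membrane, and GCH1 encodes the first enzyme of tetrahydrobiopterin synthesis. The means of such regions can hold reads from other copies.

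The members had a median mean of 20.4, with quartiles of 15.8 and 29.1, and 95% lay under 52.7. A mean of at least 50 was reached by 227 members, of at least 100 by 22 and of at least 200 by 2. Their median width was 1712 bp, from 502 to 23806 bp. Per kb of width the median was 12.5, against 5.03 in weaker regions, 19.9 in strong promoters and 13.6 in strong intergenic regions. Just inside the limit were regions in DSCAML1, SUMF1 and CHST11, all with a mean of 12.8, and just outside were regions in PID1 with 12.795, SEMA6D with 12.785 and PLCXD3 with 12.782. In 4 groups of 921 members by mean, the median width was 1372 bp in the lowest and 2442 bp in the highest group, and the mean per kb was 10.4 and 17.1.

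**Figure D2:**
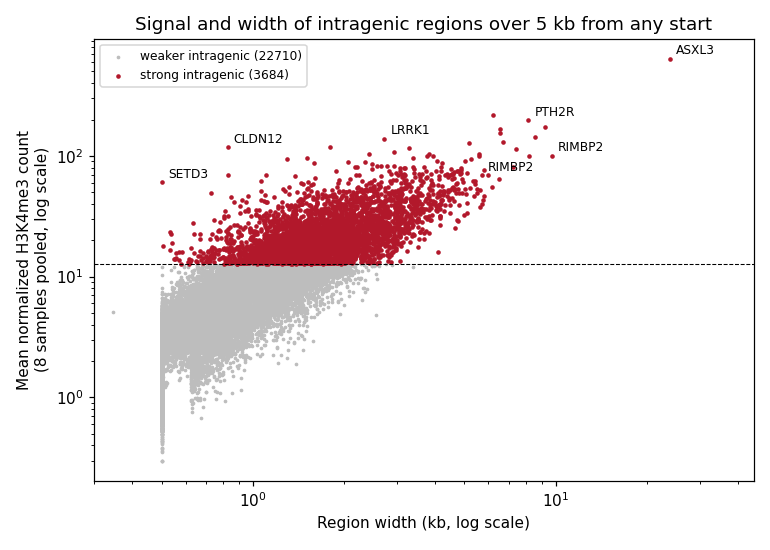
Mean normalized H3K4me3 count over 8 samples against region width in kb, both on log scales, for 3684 strong (red) and 22710 weaker (grey) regions inside genes and over 5 kb from any start. The dashed line is the minimum mean of 12.8, and the ASXL3 region, at 635 and 23806 bp, stands apart from the rest at the upper right, while CLDN12 and SETD3 reach 117 and 60.6 in under 1 kb.

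The strongest member was in ASXL3, which encodes a chromatin protein of the Additional sex combs family that works with the BAP1 deubiquitinase. It covered chr18:33736276-33760082, with a mean of 635 over 23806 bp. It overlapped exons 11 and 12 of 12 of the gene and lay 130.6 kb from the nearest start. Its midpoint was at 98.3% of the gene length, 170.0 kb from the 5′ end of a gene of 173.0 kb. A part of its 23806 bp thus lay past the 3′ end of the gene, and the mean of 635 covers that part too. The strongest region at an ASXL3 start had a mean of 21.3. ASXL3 had no other member and 1 weaker region.

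The second was in RALGAPA2, which encodes a subunit of the GTPase-activating complex of the Ral GTPases. It covered chr20:20451891-20458123 in intron 37 of the gene, whose sequence is given above, with a mean of 217, above the 177 of the promoter. The third was in PTH2R, a parathyroid hormone receptor gene, at chr2:208541153-208549287, with a mean of 197 against 30.04 at the promoter. The PTH2R member was intronic but outside the canonical transcript. The fourth, with 172, was in ESRRG, an orphan nuclear receptor gene with a role in beta cell maturation, at chr1:216516761-216526016 over coding exon 6 of 7, and the ESRRG promoter had 428. The fifth was in HDAC4, a class IIa histone deacetylase gene, in intron 2 with 168, and the HDAC4 promoter had 155. PCSK2, the prohormone convertase that cleaves proinsulin, had a member of 155 in intron 2 and 341 at the promoter.

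Ranks 7 to 20 had means between 143 and 100.6. ADAMTSL1, a secreted matrix protein gene, had 143 in a region of 8528 bp that overlapped several exons from exon 18 of 29 on. LRRK1, a kinase gene, had 139 over exon 7 of 34 against 15.7 at its promoter. DACH1, a transcription factor gene, had 130 in intron 3, MCF2L had 129 outside the canonical transcript, and FRMPD1, a scaffold protein gene, had 119 over exon 2. CLDN12, a claudin gene, had 117 in 827 bp, also outside the canonical transcript. At 142 per kb this CLDN12 region was the densest member. HDAC4 had a second region at 116, and IGF1R, the IGF1 receptor gene, had regions at 114 and 108, both in intron 2. RALGAPA2 had a second region of 105 over exon 38, whose nearest start, at 41.0 kb, was that of INSM1, a zinc finger gene of endocrine cells. The rest of the 20 were LRRFIP1 and DIP2C, both at 105 in intron 1, PBX3, a TALE homeobox gene, at 100.6 in intron 2, and RIMBP2, an active zone protein gene, at 100.6 over 9698 bp of intron 2. Of these 20 members 6 overlapped an exon, and 10 were at or above the promoter of their host.

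Host genes were long. The members lay in 1898 genes, which were 14.7% of the 12937 genes with any base more than 5 kb from every start. The median host was 169 kb long, against 41.8 kb in the other such genes. In 5 groups of equal size by the number of such bases, the share of hosts rose from 0.580% through 2.44%, 7.15% and 16.9% to 46.3%, so room in a gene goes with being a host. Over 797.8 Mb of such bases there were 4.62 members and 28.5 weaker regions per Mb. A single member was found in 1155 hosts (60.9%), 743 had at least 2, and 368 had at least 3 and together held 48.3% of the members. A further member lay within 20 kb of 1182 members (32.1%) and within 5 kb of 541.

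The genes with most members were MAML3, a Notch coactivator gene, ROBO2, an axon guidance receptor gene, and PTPRT, a receptor phosphatase gene, with 18 each. GPC6, a glypican gene, WWOX, an oxidoreductase gene, and LRMDA had 17 each, RALGAPA2 and HS6ST3, a heparan sulfate sulfotransferase gene, had 16, DACH1 had 15, and TOX, SDK1 and GPC5 had 13. These genes differ in how much room they have: the 18 members of MAML3 came to 46.0 per Mb of eligible bases and those of ROBO2 to 11.1 per Mb. The members of MAML3 ranged from 14.1 to 86.0 and lay from 2.96% to 93.2% of the gene, in introns 1 and 2. The members of ROBO2 ranged from 13.3 to 76.6 and all lay between 52.7% and 93.2% of the gene. HS6ST3 had 115 weaker regions beside its 16 members and GPC6 had 97.

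By summed mean the order was RALGAPA2 with 859, DACH1 with 700, ASXL3 with 635, MAML3 with 591 and HDAC4 with 543. RALGAPA2 members were spread from 31.3% to 95.2% of the gene, the strongest being 217, 105, 99.8, 73.0, 67.9, 59.3 and 58.8 and the weakest 13.6. DACH1 members ran from 1.97% to 97.6% of the gene and from 13.3 to 130, with values of 130, 100.4, 81.0, 80.8 and 69.5 for the strongest. All 9 IGF1R members were in intron 2, from 29.3% to 68.8% of the gene, and had means of 114, 108, 88.3, 37.1, 32.8, 24.8, 24.2, 19.7 and 16.7. The 9 HDAC4 members lay between 12.3% and 64.7% of the gene, with 6 of them in intron 2, and ranged from 18.9 to 168. The 7 ESRRG members all lay from 71.1% to 97.1% of the gene, with means of 172, 100.3, 75.5, 43.5, 19.6, 18.3 and 14.9. Of the 7 PCSK2 members 6 were in intron 2, and these had means of 155, 68.8, 51.01, 35.6, 20.9 and 19.6, while 1 in intron 7 had 20.1.

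**Figure D3:**
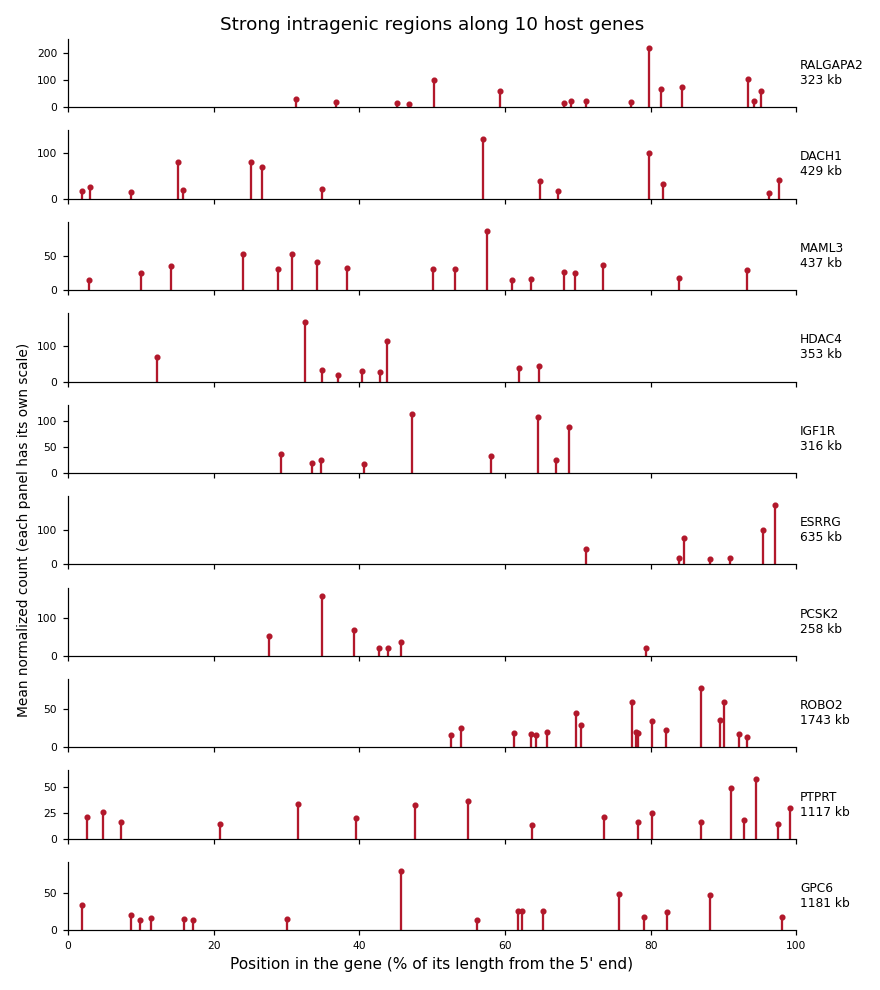
Members along 10 host genes, each scaled to its own length from the 5′ end (0%) to the 3′ end (100%), with the height of each stem giving the mean normalized count on a linear axis of its own. Members of DACH1, MAML3 and PTPRT span nearly the whole gene, those of ESRRG start at 71.1% and those of ROBO2 at 52.7%, and IGF1R and PCSK2 members cluster in intron 2.

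Per Mb of eligible bases, among hosts with at least 3 members, the first 3 were CHMP4B with 158, BANF2 with 141 and MAPRE1 with 123, all on chromosome 20. CHMP4B, an ESCRT-III subunit gene of 43.0 kb, had 6 members between 14.1 and 72.5 and a promoter of 178. BANF2 had members of 44.3, 18.2 and 16.8 and a promoter of 2.43. MAPRE1, which encodes the microtubule end-binding protein EB1, had members of 96.0, 70.2 and 15.1. Chromosome 20 had the highest density of members, 9.20 per Mb, followed by chromosome 13 with 7.34 and chromosome 21 with 6.09, while chromosome 4 had the lowest, 3.10. Weaker regions had 40.9 and 41.1 per Mb on chromosomes 20 and 13, against 26.4 on chromosome 21 and 22.2 on chromosome 4. Chromosome 19 had 43.3 weaker regions and 4.15 members per Mb. Copy number of the chromosomes in this line was not measured here, and its part in these densities was not tested.

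Along the host gene the members were spread broadly. The median position of the midpoint was 46.6% from the 5′ end, with quartiles of 24.8% and 72.0%, and the median distance from the 5′ end was 99.7 kb. The first 50% of the gene held 53.2% of members and 49.7% of eligible bases. The share of members was highest between 20% and 30% of the gene, 12.6% against 10.7% of eligible bases. It was below that of eligible bases between 60% and 70% of the gene, 8.96% against 10.4%, and between 80% and 90%, 7.82% against 9.69%. In the last 10% it was 9.72%, against 9.54% of eligible bases and 7.53% of weaker regions. The last 10% also counts regions whose midpoint lay past the 3′ end of the host, 26 in the members. Eligible bases stop at the gene end, so these shares are not strictly alike.

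**Figure D4:**
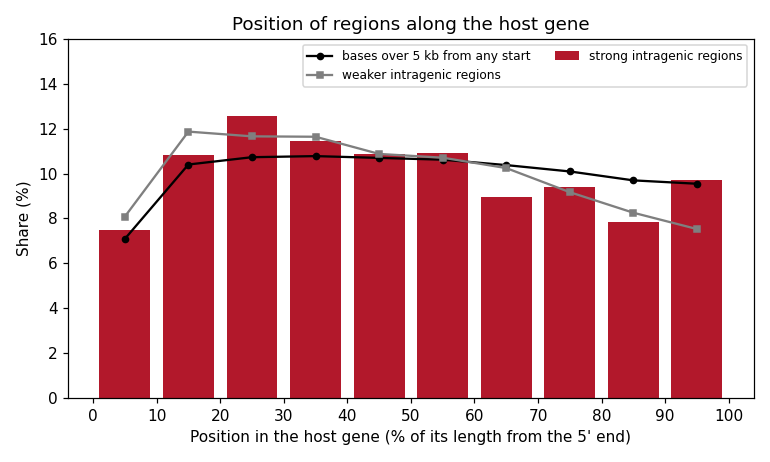
Share in percent of strong intragenic regions (bars), weaker intragenic regions (grey line) and bases over 5 kb from any start (black line) per 10% of the host gene from the 5′ end. The bars lie above the eligible bases between 20% and 30% (12.6%) and below them between 60% and 70% (8.96%) and between 80% and 90% (7.82%). In the last 10% they have 9.72% and weaker regions 7.53%, and this bin also holds 26 members with a midpoint past the 3′ end.

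By annotation 3130 members (84.96%, 95% Wilson interval 83.8 to 86.1, which covers counting error only) lay within introns, 434 (11.8%) overlapped a coding exon, 96 (2.61%) a UTR and 24 (0.651%) a non-coding exon. Exon overlap was thus found in 554 members (15.04%) and in 7.01% of weaker regions. Exons made up 4.31% of eligible bases. That is a share of single bases and is not comparable with a share of regions that touch an exon. Wider regions touch exons more often by size alone, and among regions of 1 to 2 kb the shares were 14.9% of members and 9.68% of weaker ones. The share in introns was 87.7% in the 921 members of lowest mean and 81.5% in the 921 of highest mean. Of 2840 members within an intron of the canonical transcript, 999 (35.2%) were in intron 1 and 226 in the last intron. Exons of the canonical transcript were touched by 470 members, and the rest lay outside that transcript.

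The gap to the nearest start of any kind had a median of 18.2 kb and reached 322.7 kb, and it was over 10 kb in 2743 members, over 50 kb in 572 and over 100 kb in 174. By this gap, the median mean was 20.1 at 5 to 10 kb, 20.6 at 10 to 20 kb, 20.5 at 20 to 50 kb, 20.9 at 50 to 100 kb and 19.2 beyond. The median CpG ratio in the same order was 0.223, 0.228, 0.220, 0.202 and 0.185. The nearest start belonged to a protein-coding gene for 2248 members (61.02%), to a lncRNA for 661 and to a processed pseudogene for 381, and for 2082 members (56.5%) it was a start of the host itself. The farthest member was in PTPRD, a receptor phosphatase gene, at chr9:10208041-10209398, 322.7 kb from any start, with a mean of 26.1 and a CpG ratio of 0.649. Next came PTPRT members at 289.6 and 277.8 kb with means of 16.4 and 24.4, an FBXL17 member at 262.7 kb with 22.2 and an FHIT member at 258.0 kb with 21.0.

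The host promoter was taken as the strongest region within 2 kb of any start of the gene. It existed for 1785 hosts with 3550 members, had a median of 63.2, and 94.0% of hosts had one against 78.7% of the other genes with room, whose promoters had a median of 51.9. The median member had 0.311 times the mean of its host promoter. A member was at or above the promoter in 462 cases (13.0%, Wilson interval 11.9 to 14.2), and in 344 hosts (19.3%) the strongest member was. Means depend on width, so these ratios compare whole regions and not heights.

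Where the strongest member had a mean of at least 40, the ratio to the promoter was highest in MALRD1, with 44.2 against 1.296, and in ASXL3, with 635 against 21.3. LRRK1 reached 8.83 times its promoter. EBF3, a transcription factor gene, had 65.2 against 7.18 over a coding exon, and ZEB2, a zinc finger repressor gene, had 94.9 against 12.6 over its exon 10 of 10. PTH2R reached 6.57 times its promoter. TET1, which oxidizes 5-methylcytosine, had 80.9 against 14.9, and LMX1A, a LIM homeobox gene, had 79.6 against 15.7. Of the 15 hosts in this ranking, chosen after the values were seen, the members of 8 overlapped a coding exon. A further 113 hosts with 134 members had no region at a start, among them COL23A1, a collagen gene, with a member of 96.8.

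**Figure D5:**
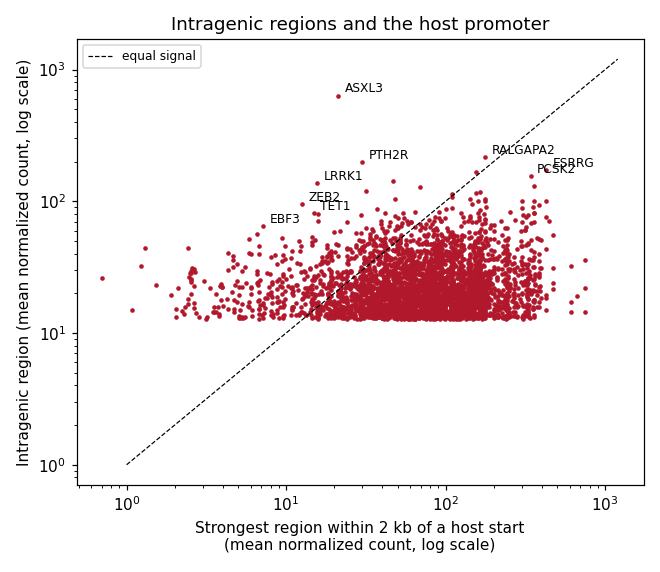
Mean normalized count of each member against that of the strongest region within 2 kb of a start of its host gene, on log scales, for 3550 members. The dashed line marks equal values: 462 members lie on or above it, with ASXL3, LRRK1, ZEB2 and EBF3 far above and ESRRG and PCSK2 below.

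The lists of genes chosen for this cell type were read as counts beside all genes with room, of which 14.7% were hosts, with 4.62 members per Mb. The share of hosts rises with room, and the genes of most lists have more of it than the median of 22.0 kb over all genes: 55.1 kb for islet transcription factors, 78.1 kb for secretory genes, 44.9 kb for chromatin regulators, 58.9 kb for growth factor signalling and 51.1 kb for patterning factors. Shares of hosts are therefore not comparable with the 14.7% of all genes. Of the islet transcription factors with room 14 of 27 were hosts, with 44 members and 9.10 per Mb. ESRRG led with 172. ST18 had members of 94.1, 28.6, 26.5 and 15.8 and a promoter of 385, ZBTB20 had 4 of up to 47.4, SOX5 had 8 from 18.3 to 34.2, and TCF7L2, a Wnt pathway effector in which variation is linked to diabetes, had 29.4, 28.7 and 26.8. RFX6, needed for islet development, had 17.0 and 16.4 at a gene whose promoter had 276. No member was found in PDX1, NEUROD1, ISL1 or PAX6. The room of each of these genes is not given here, and genes with at most 5.00 kb of room were hosts in only 0.580% of cases. Their lack of a member is therefore not read as a result.

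Of the genes of the secretory granule and stimulus secretion 18 of 39 with room were hosts, with 62 members and 7.77 per Mb. By strongest member PCSK2 led, followed by CACNA1C, a calcium channel gene, with 81.5 in intron 1. CACNB2, a calcium channel subunit gene, had 5 members, all in intron 2, with 70.0, 54.4, 43.8, 36.3 and 16.3. SLC30A8, the zinc transporter of insulin granules, had members of 55.04, 31.4, 24.1 and 21.7 and a promoter of 473. PTPRN2, a granule membrane protein gene, had 9 members from 14.3 to 54.4. ABCC8, KCNJ11, CPE and PCSK1 had none, and as their room is not given either, this is not read as a result.

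Of the chromatin regulators 11 of 45 with room were hosts, with 40 members and 8.11 per Mb. By strongest member HDAC4 and TET1 were followed by EHMT1, a histone methyltransferase gene, with 70.8 over exon 10. CHD7, a chromatin remodeller gene, had 8 members from 15.5 to 64.9, and ARID1B, a SWI/SNF subunit gene, had 8 from 13.7 to 26.0. Of the genes of growth factor and insulin signalling 13 of 39 were hosts, with 32 members and 6.58 per Mb. IGF1R had 9 members and RPTOR, the mTORC1 scaffold, had 6 from 14.2 to 59.8, while INSR, the insulin receptor gene, had 38.4 and 26.4 in intron 2 against 43.4 at its promoter.

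Of the developmental patterning factors 18 of 50 were hosts, with 42 members and 6.58 per Mb, and LMX1A had 6 members from 13.0 to 79.6, ZFHX3 had 9 and EBF3 had 2. Of the neuronal adhesion and synapse genes 34 of 40 were hosts with 174 members, but these genes are very long, with a median of 940.1 kb of eligible bases, and the density of 4.54 per Mb was close to that of all genes. Of the cell cycle genes 3 of 29 were hosts, with 6 members and 6.74 per Mb, and the list had the shortest room, a median of 13.0 kb. These were CDK6, a G1 kinase, with 32.6, 22.6, 18.4 and 16.8, CENPF, a kinetochore protein gene, with 17.2, and CDKN2A. CDKN2A, which encodes p16, had 36.7 at chr9:21985755-21988763 against 197 at the strongest region within 2 kb of any of its starts. Which of its starts that region lies at is not given here. This CDKN2A member was intronic but outside the canonical transcript, with its midpoint 8.04 kb from the 5′ end of the gene. Its nearest start, at 5.38 kb, was that of the lncRNA CDKN2B-AS1. Differences between the lists were not tested.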

How the data were processed

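H3K4me3 was measured by multiplexed ChIP-seq in 8 of 24 samples, 4 non-senescent and 4 senescent; the 16 samples of other marks were not used here. Per the methods and labels, the authors used Bowtie2 for alignment (build hg38), HOMER for H3K4me3 peaks and DESeq2 for the counts in peaks; the version of DESeq2 is not given in the sources used here. The deposited signal is the mean normalized count of each region over the 8 samples, so depth per sample and replicate error are unknown. The methods name input controls for H3K27ac and H3K4me1 peaks and none for H3K4me3, and the sources used here do not say how peaks were merged across samples. The table also holds fold changes, their errors, test statistics and p-values for the authors' own comparison of senescent with non-senescent cells, and these columns were not used. No test was run.

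Regions were matched to GENCODE release 44 and hg38 with python 3.11.15, pandas 2.3.3, numpy 2.4.6 and pysam 0.24.0. Shares have Wilson intervals (scipy 1.17.1, 95%), which cover counting error only. Gaps run from the region edge to the nearest start. The host of a region is the gene of largest overlap. Coordinates of regions are as deposited, and sequence windows are 1-based. Copies of up to 40 stretches of 24 bases per region were counted in the genome. The reference is all in capitals, so no masked share was computed. On simulated regions, 200 of 200 planted members were found and 0 of 600 decoys were selected. The simulation had a single start per gene on an invented chromosome. It covered the distance, overlap and minimum mean steps, but not the exclusion of ZNF symbols or the real annotation.

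The members, lists, markers and alternatives were chosen with earlier results of these data known, and the motifs, the CpG island criterion, the neighbour distances, the comparison at 1 to 2 kb and the list of ratios to the promoter were chosen after the table was seen. Genes were named by rule: the 20 members of highest mean, the 10 hosts with most members, the 5 farthest and 5 most CpG-rich members, up to 5 per list and those next to the limit. Other genes named were chosen after their values were seen. Sequences are the central windows of the 4 strongest, 2 most CpG-rich and 1 lowest-GC members that were single-copy and outside UTRs; a second lowest-GC window is not reported here.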

Additional observations from a re-analysis of the deposited data

How the results depend on the processing

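No paired analysis was possible because the table holds 1 mean per region and no value per sample, and for the same reason no replicate could be left out. Over 9 alternatives and 6 results, 37 of 54 values stayed within the interval of the main value or within 1.5 times the main count, and the cause of the other shifts was not tested. Some of the 37 were fixed by design and say nothing on stability. These were the 3684 regions when ranked by mean per kb and the 1898 hosts when 1 region was kept per host. Asking for a midpoint inside the gene kept 3658 regions, and leaving out multi-copy regions kept 3656. Values under these alternatives could therefore move little and say little on stability. With a minimum mean of 20, there were 1911 regions in 1187 host genes, 82.9% in introns, with 14.9 per kb and 17.7% at or above the host promoter. With a minimum of 10, the mean per kb was 11.6 and 11.4% were at or above the promoter. Taking only the strongest region of each host left 1898 regions, with 79.4% in introns, a median GC content of 41.4%, 13.8 per kb and 19.3% at or above the promoter. At over 2 kb from every start 82.4% lay in introns with a median GC content of 41.2%, and at over 10 kb 87.0% lay in introns. With starts of protein-coding genes only, the median GC content was 41.2%. Ranking by the mean per kb gave 13.4 per kb. Depth and replicate spread of each region are unknown, so small differences between regions cannot be read.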
